A study of Mus musculus with 4 samples.

Results

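The genes described here are 36 genes of the NRF2 antioxidant response and of the glutathione and thioredoxin systems, out of 36445 genes in the expression table. They were taken by matching the table's gene symbols to a list of names. The matching used no measured value, but the list was chosen with earlier results of these data known. All 36 were found. Gstp1 has a second entry under the same symbol that is listed at 0 in all 4 libraries, and the entry present in the mouse annotation (ENSMUSG00000060803) was used. RNA was sequenced from MC38, a mouse colon cancer cell line grown in DMEM with fetal bovine serum, after 24 h with phosphate-buffered saline (PBS, the vehicle group, n = 2 libraries) or after 24 h with 1 mM 5-fluorouracil (5-FU, n = 2 libraries). 5-FU is a pyrimidine analogue used as a chemotherapy drug, which blocks thymidylate synthesis and is built into RNA and DNA. All 4 libraries come from the same single cell line, were prepared from polyadenylated RNA, and differ in the labels only by treatment. The comparison asks which of these genes differ in transcript level between MC38 cells given 5-FU and cells given vehicle.

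NRF2, encoded by Nfe2l2, is a transcription factor that pairs with small MAF proteins and binds antioxidant response elements in the promoters of detoxification and redox genes. KEAP1 holds NRF2 in the cytoplasm and directs it to degradation until oxidants or electrophiles modify KEAP1, so NRF2 activity is set largely at the level of the protein. Glutathione and thioredoxin are parallel systems that reduce peroxides and oxidised proteins, and both draw their electrons from NADPH, much of it made by the pentose phosphate pathway. Ferritin, whose chains are also NRF2 targets, stores iron in a form that does not feed oxidant chemistry.

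The vehicle libraries held an estimated 41.3 M and 41.6 M reads, and those of treated cells 20.8 M and 20.6 M. The estimated depth thus differed with treatment, and its part in the results was not tested. Genes above 0 FPKM numbered 19704 and 19568 in PBS and 19755 and 20008 after 5-FU. The lowest value of any member in any library corresponded to about 237 reads (Srxn1 after 5-FU). The PBS libraries differed from each other more than the 5-FU libraries did, with a median absolute log2 difference of 0.271 over all tested genes against 0.073. All 11 epithelial markers of colon examined, among them Epcam and Cdh1, stayed under 1 FPKM in every library, although the line is labelled as colon cancer, whereas the summed level of 9 mesenchymal markers, led by vimentin, lay between 1685 and 1787 FPKM. Within that list Fn1, Twist1 and Snai2 were lower and S100a4 was higher after 5-FU (limma adjusted p 0.0155, 0.00747, 0.00383 and 0.0144). Of 11 leukocyte markers 10 stayed under 1 FPKM, with Ptprc among them, and the summed level of the list, most of it Cd68, was 7.48 and 20.3 FPKM in the PBS libraries and 19.1 and 17.7 FPKM in the 5-FU libraries. The 5 endothelial markers stayed under 1 FPKM as well. A list of 5 fibroblast markers, led by Pdgfra, summed to 11.9 and 21.2 FPKM in PBS and to 7.65 and 7.16 FPKM after 5-FU, and its part in the results was not tested. In bulk RNA, fewer cells expressing a gene and less RNA per cell cannot be told apart.

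Among the 36 genes, 10 were higher and 4 were lower after 5-FU, and 22 did not pass the test. The genes that rose were Nfe2l2 itself, the NRF2 target Osgin1, the thioredoxin genes Txn1, Txn2 and Txnrd1, the peroxiredoxins Prdx1, Prdx3 and Prdx6, and the glutathione peroxidases Gpx1 and Gpx8. The genes that fell were the NRF2 inhibitor Keap1, the sulfiredoxin gene Srxn1, the catalytic subunit gene of glutathione synthesis Gclc, and the first enzyme gene of the pentose phosphate pathway, G6pdx. The largest rise was 6.09-fold, for Osgin1, and the largest fall was 12.7-fold, for Srxn1, so the targets usually read together as an NRF2 response did not move in 1 direction.

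Passing means a Benjamini-Hochberg adjusted p under 0.05 in limma's moderated test on log2(FPKM + 1), adjusted over all 11644 genes tested, and FPKM is fragments per kilobase of transcript per M fragments. All 36 genes passed the filter on low values. The members' share was 27.8% higher and 11.1% lower, beside 22.1% higher and 31.2% lower over all genes tested. Since the list was chosen with earlier results of these data known, the shares and medians given here only describe it. The members' median log2 difference (5-FU minus PBS) was 0.166, beside -0.0971 over all genes. The PBS and 5-FU values did not overlap for 32 of 36 members, which is 88.9% beside 81% of all genes tested. With quantile normalization 11 members (30.6%) were higher and 8 (22.2%) lower, beside 25.3% and 24.3% of all genes, so the members' share of falls was then near the background, and the median of all genes moved to 0.021 while that of the members moved to 0.027. Under this scaling the log2 differences of Gpx1 (0.54), Prdx1 (0.42) and Txnrd1 (0.52) shrank by more than 1.5 times and still passed. Leaving out PBS replicate 1 gave a members' median of 0.079, and leaving out PBS replicate 2 gave 0.267. With either 5-FU library left out, only 3 of the 14 calls were still past the threshold (Osgin1, Gclc and Srxn1), and the adjusted p values of the other 11 lay between 0.0531 and 0.179. The error then rests on the more variable PBS pair. All 14 calls were kept with a trend of the differences on exonic length or on gene span removed.

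**Figure D1:**
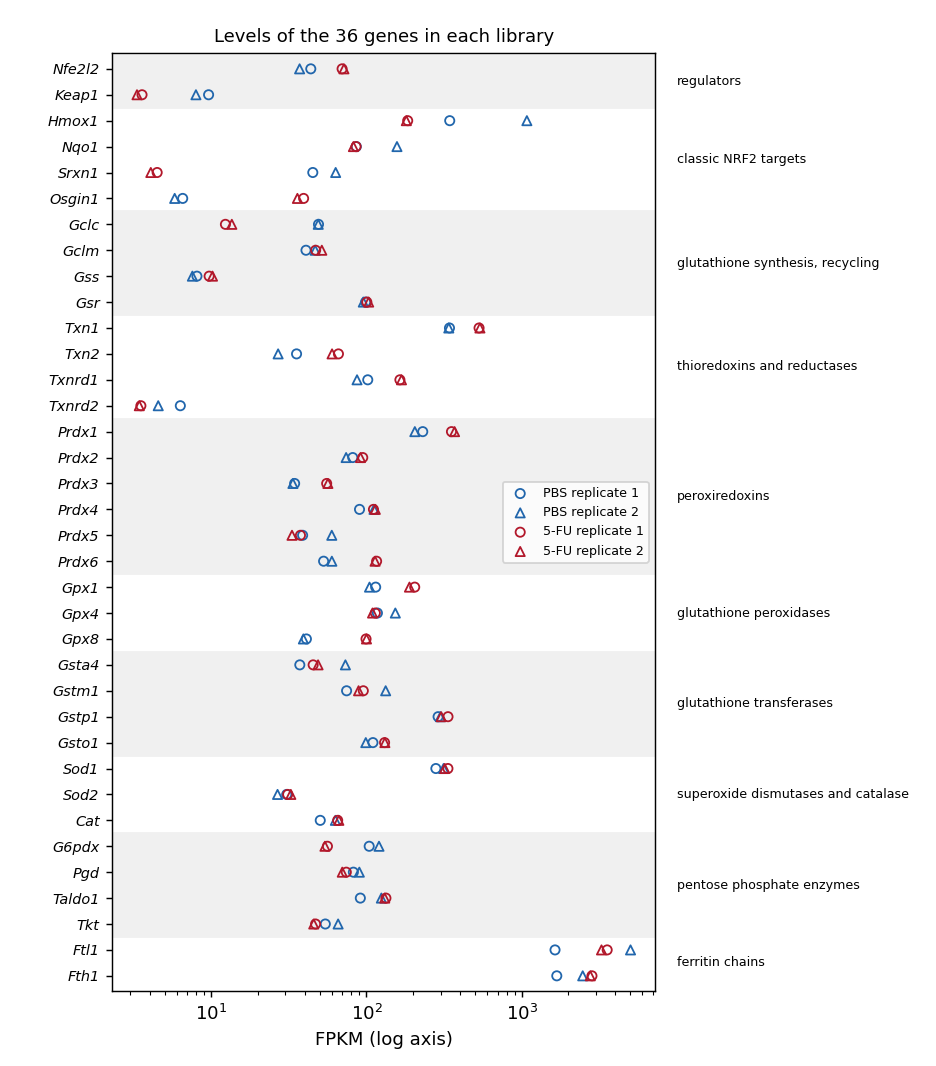
FPKM on a log axis of each of the 36 genes in each of the 4 libraries, grouped by role. Ftl1 and Fth1 lie above all others, between 1640 and 5029 FPKM, and the open gap between PBS and 5-FU points is widest for Srxn1 and Osgin1.

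Promoter sequence was examined because NRF2 acts through a short element, and 6 promoters are shown for genes that moved: 4 that rose and 2 that fell. RefSeq promoters on GRCm38.p6 were found for 31 of the 36 genes, 39 windows in all, each from 250 bases before to 50 bases after a transcription start. Hmox1, Gclc, Gsr, Gsta4 and Prdx6 had no entry. Each sequence below is the 250 bases before the start, 5′ to 3′ on the strand of the gene, and capitals mark a match to TGACNNNGC, the core of the antioxidant response element, or to TGAGTCAGC, on either strand. They lie at chr8:119436897-119437146 (Osgin1, plus strand), chr2:152105274-152105523 (Srxn1, plus strand), chr4:116685349-116685598 (Prdx1, plus strand), chr10:82858956-82859205 (Txnrd1, plus strand, 1 of 3 annotated starts), chr2:75704664-75704913 (Nfe2l2, minus strand) and chrX:74428881-74429130 (G6pdx, minus strand).
Osgin1: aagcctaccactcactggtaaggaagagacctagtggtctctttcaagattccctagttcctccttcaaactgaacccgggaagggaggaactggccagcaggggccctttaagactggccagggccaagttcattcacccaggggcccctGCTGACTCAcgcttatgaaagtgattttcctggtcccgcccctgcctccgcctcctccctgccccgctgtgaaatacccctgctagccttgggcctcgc
Srxn1: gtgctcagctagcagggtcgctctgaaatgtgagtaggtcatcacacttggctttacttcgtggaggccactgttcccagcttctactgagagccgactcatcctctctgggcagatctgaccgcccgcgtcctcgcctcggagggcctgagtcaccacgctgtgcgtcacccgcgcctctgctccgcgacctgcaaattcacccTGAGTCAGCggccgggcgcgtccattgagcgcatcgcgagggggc
Prdx1: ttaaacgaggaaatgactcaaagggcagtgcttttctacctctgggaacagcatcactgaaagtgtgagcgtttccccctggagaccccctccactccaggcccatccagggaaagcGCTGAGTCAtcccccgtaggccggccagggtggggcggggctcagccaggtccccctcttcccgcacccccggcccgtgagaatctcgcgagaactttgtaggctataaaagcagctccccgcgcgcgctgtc
Txnrd1: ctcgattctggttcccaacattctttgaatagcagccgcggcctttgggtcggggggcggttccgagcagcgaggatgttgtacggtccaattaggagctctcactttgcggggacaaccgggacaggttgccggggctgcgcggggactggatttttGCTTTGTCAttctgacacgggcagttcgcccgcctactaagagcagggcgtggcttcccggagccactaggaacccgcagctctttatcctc
Nfe2l2: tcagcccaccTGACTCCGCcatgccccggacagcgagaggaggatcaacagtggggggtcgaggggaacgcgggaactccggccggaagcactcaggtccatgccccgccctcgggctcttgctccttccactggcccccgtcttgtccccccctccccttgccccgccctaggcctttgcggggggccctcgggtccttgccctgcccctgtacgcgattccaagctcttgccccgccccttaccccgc
G6pdx: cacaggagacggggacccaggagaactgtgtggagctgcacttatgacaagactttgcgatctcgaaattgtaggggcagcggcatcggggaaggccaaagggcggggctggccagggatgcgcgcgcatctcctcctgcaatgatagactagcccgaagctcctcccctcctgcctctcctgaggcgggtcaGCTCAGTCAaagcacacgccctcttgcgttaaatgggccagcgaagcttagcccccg
TGACNNNGC was present in 8 of the 39 member windows (20.5%) and in 12.4% of all 32851 promoter windows. TGACTCAGC or TGAGTCAGC, in which the element overlaps the AP-1 motif (TGACTCA or TGAGTCA), was present in 4 member windows (10.3%), those of Osgin1, Srxn1, Prdx1 and Gstp1, and in 0.822% of all windows. The form TGAGTCAGC was added to the search after the member promoters had been read, so these windows supplied the letters they are counted on. The form searched first, TGACTCAGC, was present in 1 member window (2.56%), that of Prdx1, and in 0.454% of all. In Osgin1 the first base of the match lay at position -99 from the start, in Srxn1 at -45, in Prdx1 at -133 and in Txnrd1 at -92. Srxn1 had a further match, to TGACNNNGC on the opposite strand, at position 29 after the start. That match lies outside the bases shown, and the match at -45 is of the form TGAGTCAGC only. In Nfe2l2 the first base of the match lay at -240 and in G6pdx at -57. A match is a description of the letters and not a measured binding site. The 10 genes with either motif comprised 4 of the 9 risen genes that had a promoter, 2 of the 3 that fell and 4 of the 19 that did not pass (Gclm, Gstp1, Sod1 and Pgd). Counted by window and not by gene, either motif was present in 10 of the 39 member windows (25.6%) and in 12.7% of all windows. These counts include the form added after the member promoters had been read, so they only describe the letters. Osgin1, with the largest rise, and Srxn1, with the largest fall, carry the same 9-letter motif, on opposite strands.

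The regulators moved in opposite directions. Nfe2l2 (ENSMUSG00000015839, chr2:75675513-75704641, minus strand) was at 43.8 and 37.1 FPKM in the PBS libraries and at 69.6 and 71.6 FPKM in the 5-FU libraries. Its mean rose 1.75-fold, from 40.4 ± 4.73 to 70.6 ± 1.36 FPKM (SD, n = 2 each; log2 difference 0.79, SE 0.125, limma adjusted p 0.00831). Keap1 (ENSMUSG00000003308, chr9:21229730-21239361, minus strand), the adaptor that targets NRF2 for degradation, was at 9.61 and 7.96 FPKM in PBS and at 3.58 and 3.32 FPKM after 5-FU. Keap1 fell 2.55-fold (log2 difference -1.13, SE 0.15, adjusted p 0.00568), and both 5-FU libraries lay below both PBS libraries. The ratio of Nfe2l2 to Keap1 transcripts was therefore 4.56 and 4.66 in the PBS libraries and 19.5 and 21.6 in the 5-FU libraries. Keap1 shares 510 exonic bases with Gm16754 on the opposite strand, which was at 3.82 and 2.67 FPKM in PBS and 0.37 and 0.42 FPKM after 5-FU. No source used here says whether reads were counted by strand, so the reads of these overlapping genes cannot be told apart where they share bases.

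**Figure D2:**
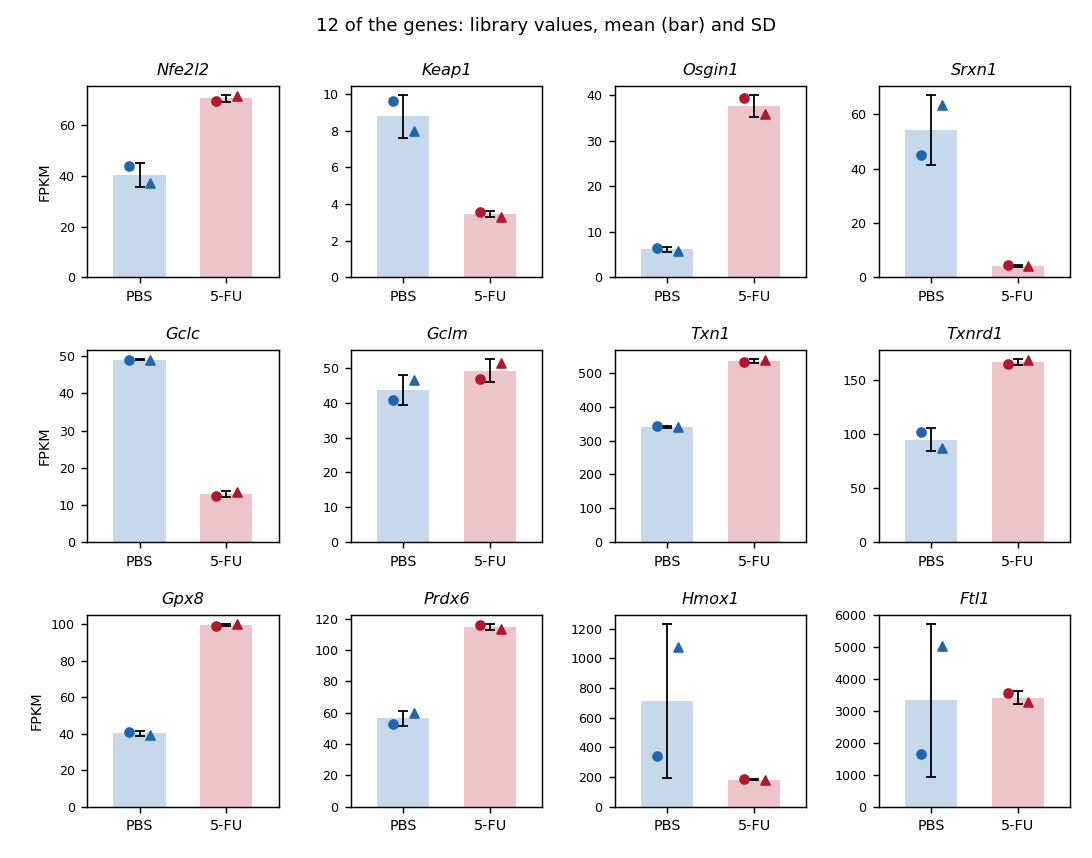
FPKM of 12 genes in each library (circle, replicate 1; triangle, replicate 2), with the mean as a bar and the SD of 2 libraries as the error, each panel on its own axis from 0. The PBS points of Hmox1 and Ftl1 stand far apart, whereas those of Gclc, Txn1 and Gpx8 lie close together.

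Of the 4 classic NRF2 targets, 1 was higher, 1 was lower and 2 did not pass the test. Among all genes tested, 22.1% were higher and 31.2% lower, and 4 genes are too few to read a share from. Srxn1 (ENSMUSG00000032802, chr2:152105516-152111376, plus strand) encodes sulfiredoxin, which restores overoxidised peroxiredoxins. It was at 45.1 and 63.3 FPKM in PBS and at 4.48 and 4.08 FPKM after 5-FU, a fall of 12.7-fold (log2 difference -3.37, SE 0.195, adjusted p 0.0027). Osgin1 (ENSMUSG00000074063, chr8:119434124-119446256, plus strand), an oxidative stress induced growth inhibitor, was at 6.54 and 5.81 FPKM in PBS and at 39.3 and 35.9 FPKM after 5-FU. Its rise of 6.09-fold (log2 difference 2.43, SE 0.127, adjusted p 0.0027) and the fall of Srxn1 kept passing with any single library left out, with adjusted p values of at most 0.0443 for Osgin1 and 0.0382 for Srxn1.

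Hmox1 (ENSMUSG00000005413, chr8:75093621-75100589, plus strand), heme oxygenase 1, breaks heme down to iron, carbon monoxide and biliverdin. It was at 343.9 and 1080.4 FPKM in PBS and at 184.3 and 180.6 FPKM after 5-FU. Both 5-FU libraries lay below both PBS libraries, but the PBS libraries stood apart by 1.65 on the log2 scale, and the difference of -1.74 (SE 0.552) did not pass (adjusted p 0.0525). Hmox1 was past the threshold in 5 of 16 alternative settings, on the lower side each time. These include the fits with a PBS library left out, at -2.56 without replicate 1 and -0.91 without replicate 2. The error of those fits rests on the 5-FU pair, so they cannot show that the fall withstands the spread of the PBS libraries. Nqo1, a quinone reductase and the usual reporter of NRF2 activity, was at 86.0 and 157 FPKM in PBS and at 85.7 and 82.4 FPKM after 5-FU. PBS replicate 1 was within 1 FPKM of the first 5-FU library, and the log2 difference of -0.46 (SE 0.301) did not pass (adjusted p 0.247).

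In glutathione synthesis the catalytic and the modifier subunit of the same enzyme separated. Gclc (ENSMUSG00000032350, chr9:77754535-77794485, plus strand), the catalytic subunit of glutamate-cysteine ligase, which carries out the rate-limiting step, was at 49.1 and 48.9 FPKM in PBS and at 12.3 and 13.6 FPKM after 5-FU. It fell 3.78-fold (log2 difference -1.84, SE 0.111, adjusted p 0.0027), and its adjusted p was at most 0.046 with any single library left out. Gclm (ENSMUSG00000028124, chr3:122245557-122270732, plus strand), the modifier subunit that raises the activity of the catalytic one, was at 40.8 and 46.7 FPKM in PBS and at 47.0 and 51.5 FPKM after 5-FU, a difference that did not pass (log2 difference 0.17, SE 0.125, adjusted p 0.299). The Gclc to Gclm ratio was 1.2 and 1.05 in the PBS libraries and 0.262 and 0.263 in the 5-FU libraries. Gclm shares 296 exonic bases with Gm17494 on the opposite strand, which was at 6.75 and 10.2 FPKM in PBS and at 13.2 and 14.0 FPKM after 5-FU.

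The enzymes that complete and recycle glutathione did not pass. Gss, glutathione synthetase, was at 7.82 ± 0.372 FPKM in PBS and at 9.93 ± 0.354 FPKM after 5-FU (log2 difference 0.31, SE 0.123, adjusted p 0.0922). It shares 395 exonic bases with Acss2 on the opposite strand, which was at 11.8 and 16.1 FPKM in PBS and at 2.82 and 2.76 FPKM after 5-FU. Gsr, glutathione reductase, which regenerates reduced glutathione with NADPH, was at 97.0 ± 2.31 and 102 ± 2.0 FPKM, a log2 difference of 0.07 (adjusted p 0.579) that became -0.18 with quantile normalization.

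Of the 4 genes of thioredoxins and their reductases, 3 rose (75.0%, beside 22.1% of all genes tested) and none passed downward (beside 31.2%). At an unadjusted p under 0.05 in limma, 1 (Txnrd2) was lower. A list of 4 genes is too short to read a share from. Txn1 (ENSMUSG00000028367, chr4:57943373-57956411, minus strand), the cytosolic thioredoxin, was at 342.6 and 339.1 FPKM in PBS and at 531.4 and 538.3 FPKM after 5-FU, 1.57-fold higher (log2 difference 0.65, SE 0.106, adjusted p 0.00895; 0.41 with the trend on exonic length removed). Txn2 (ENSMUSG00000005354, chr15:77915047-77929006, minus strand), the mitochondrial thioredoxin, was at 35.4 and 27.0 FPKM in PBS and at 66.0 and 60.0 FPKM after 5-FU, 2.02-fold higher (log2 difference 1.0, SE 0.166, adjusted p 0.00934). Txnrd1 (ENSMUSG00000020250, chr10:82833951-82897712, plus strand), the cytosolic reductase that recharges thioredoxin, was at 101.9 and 86.9 FPKM in PBS and at 164.2 and 168.1 FPKM after 5-FU, 1.76-fold higher (log2 difference 0.81, SE 0.124, adjusted p 0.00756). The ratio of Txn1 to Txnrd1 was 3.36 and 3.9 in PBS and 3.24 and 3.2 after 5-FU. Txnrd2, the mitochondrial reductase, was at 6.32 and 4.55 FPKM in PBS and at 3.52 and 3.44 FPKM after 5-FU. Its groups did not overlap, but the log2 difference of -0.51 (SE 0.182) did not pass (adjusted p 0.0708). In mitochondria the thioredoxin gene therefore rose while its reductase gene was not shown to rise with it.

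Of the 6 peroxiredoxins, which reduce hydrogen peroxide with thioredoxin or glutathione, 3 rose and none passed downward. At an unadjusted p under 0.05 in limma, 0 were lower as well. Of all genes tested, 22.1% were higher and 31.2% lower, and a list of 6 genes is too short to read a share from. Prdx6 (ENSMUSG00000026701, chr1:161240112-161251219, minus strand), the 1-cysteine peroxiredoxin that also repairs oxidised phospholipids, was at 52.9 and 59.8 FPKM in PBS and at 116.2 and 113.6 FPKM after 5-FU. Its 2.04-fold rise (log2 difference 1.02, SE 0.113, adjusted p 0.00432) was the largest of the family. Prdx1 (ENSMUSG00000028691, chr4:116685544-116700822, plus strand), the main cytosolic form, was at 230.4 and 204.9 FPKM in PBS and at 352.9 and 369.5 FPKM after 5-FU, 1.66-fold higher (log2 difference 0.73, SE 0.118, adjusted p 0.00876). Prdx3, the mitochondrial form served by Txn2, was at 34.4 and 33.6 FPKM in PBS and at 55.4 and 56.4 FPKM after 5-FU, 1.64-fold higher (log2 difference 0.7, SE 0.1, adjusted p 0.00661). Prdx1 rose while Srxn1, whose product repairs it, fell, and the Prdx1 to Srxn1 ratio was 5.11 and 3.24 in PBS and 78.8 and 90.7 after 5-FU.

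The remaining peroxiredoxins did not pass. Prdx2 was at 77.7 ± 5.38 FPKM in PBS and 93.1 ± 2.17 FPKM after 5-FU (log2 difference 0.26, adjusted p 0.106), and it shares exonic bases with Junb and Rnaseh2a on the opposite strand. Prdx4, the form of the endoplasmic reticulum, had overlapping groups, with 90.2 and 112 FPKM in PBS and 111 and 114 FPKM after 5-FU, and its log2 difference of 0.16 (adjusted p 0.375) became -0.1 with quantile normalization. Prdx5 was at 38.8 and 59.8 FPKM in PBS and at 37.5 and 33.1 FPKM after 5-FU (log2 difference -0.44, SE 0.232, adjusted p 0.17), and it shares 409 exonic bases with Trmt112 on the opposite strand. For Prdx5 the first PBS library lay close to the 5-FU libraries and the second well above them.

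Among the glutathione peroxidases, Gpx8 and Gpx1 rose and Gpx4 did not pass. Gpx8 (ENSMUSG00000021760, chr13:113042753-113046410, minus strand), a membrane peroxidase of the endoplasmic reticulum, was at 41.0 and 39.2 FPKM in PBS and at 99.3 and 100 FPKM after 5-FU, 2.49-fold higher (log2 difference 1.29, SE 0.1, adjusted p 0.00278). Gpx1 (ENSMUSG00000063856, chr9:108338903-108340343, plus strand), the cytosolic selenoprotein that reduces hydrogen peroxide, was at 114.6 and 104.6 FPKM in PBS and at 204.5 and 189.2 FPKM after 5-FU, 1.8-fold higher (log2 difference 0.84, SE 0.113, adjusted p 0.0059). Gpx4, the selenoprotein that reduces lipid peroxides and restrains ferroptosis, was at 117.6 and 153.4 FPKM in PBS and at 114.0 and 109.4 FPKM after 5-FU. Its groups did not overlap, but the first PBS library lay close to the 5-FU libraries, and the log2 difference of -0.26 (SE 0.16) did not pass (adjusted p 0.221). Selenoprotein genes thus appeared on both sides of the threshold: Gpx1 and Txnrd1 rose, while Gpx4 and Txnrd2 did not pass.

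**Figure D3:**
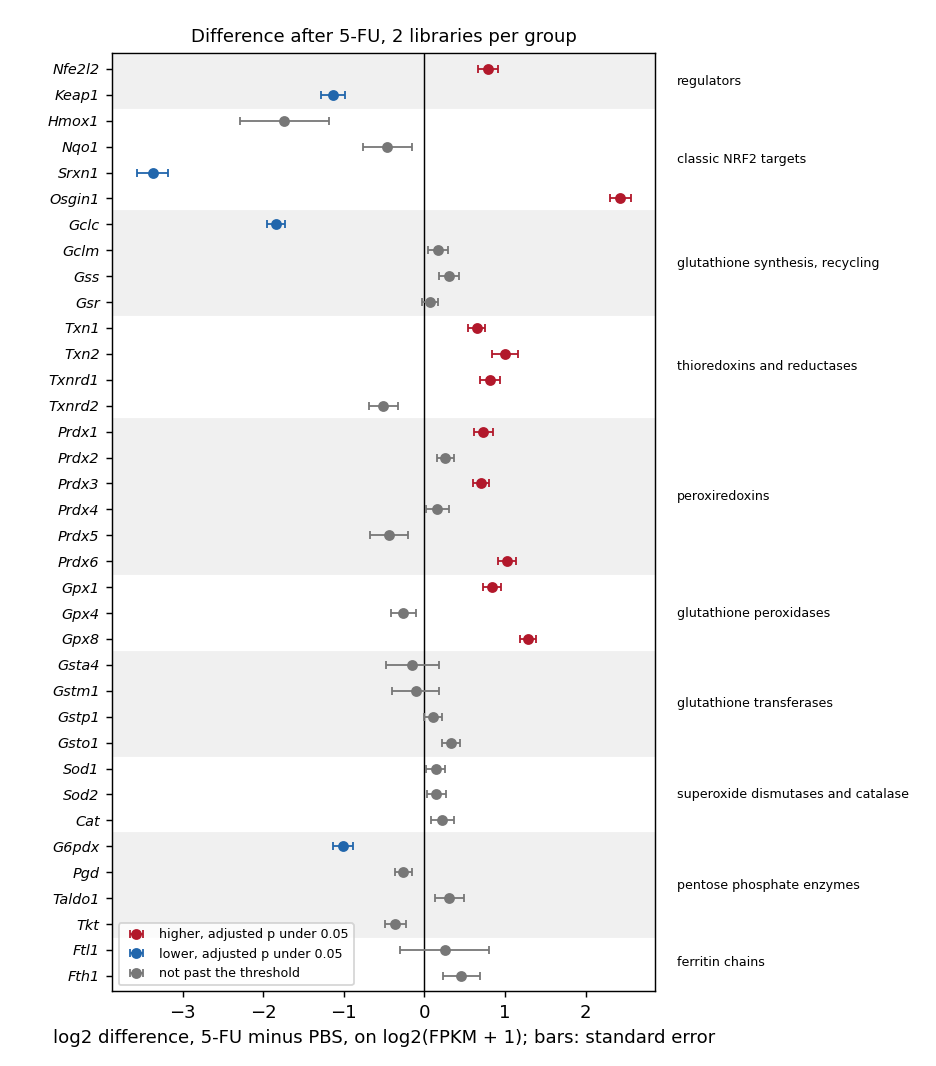
Log2 difference (5-FU minus PBS, on log2(FPKM + 1)) of each of the 36 genes by role, with the SE from limma as the bar and the calls marked. Osgin1 stands at 2.43 and Srxn1 at -3.37, and the wide bars of Hmox1 and Ftl1 come with standard errors of 0.552 and 0.55.

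None of the 4 glutathione transferases, which conjugate glutathione to electrophiles, passed the limma test, and 1 (Gsto1, higher) was under 0.05 before adjustment. Over all genes tested 22.1% were higher and 31.2% lower, and a list of 4 genes is too short to read a share from. Gsto1 was at 104 ± 7.79 FPKM in PBS and 131 ± 0.392 FPKM after 5-FU (log2 difference 0.33, SE 0.11, adjusted p 0.0605). Gstp1, the most abundant of them, was at 294 ± 7.07 and 319 ± 22.8 FPKM (log2 difference 0.11, adjusted p 0.433; -0.16 with quantile normalization). Its close paralog Gstp2 was between 2.15 and 3.90 FPKM, and reads common to both copies may have been split between them. Gsta4 was at 37.2 and 73.1 FPKM in PBS and at 45.3 and 48.8 FPKM after 5-FU, and Gstm1 was at 74.4 and 133 FPKM in PBS and at 95.4 and 88.9 FPKM after 5-FU. For both genes the PBS libraries lay on either side of the 5-FU libraries, and the sign of the difference followed which PBS library was kept: without PBS replicate 2 it was 0.33 for Gsta4 and 0.3 for Gstm1, against -0.63 and -0.52 without PBS replicate 1.

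The superoxide dismutases and catalase, the enzymes that remove superoxide and hydrogen peroxide without thiols, did not pass either. None of the 3 was under 0.05 before adjustment in limma. Beside the 22.1% higher and 31.2% lower of all genes tested, 3 genes are too few to read a share from. Sod1, the cytosolic copper and zinc enzyme, was at 297 ± 23.9 FPKM in PBS and 327 ± 11.1 FPKM after 5-FU (log2 difference 0.14, adjusted p 0.357; -0.14 with quantile normalization). Sod2, the mitochondrial manganese enzyme, was at 28.7 ± 2.75 and 31.8 ± 1.03 FPKM (log2 difference 0.15, adjusted p 0.346). Cat was at 56.7 ± 8.96 and 65.8 ± 0.797 FPKM (log2 difference 0.22, adjusted p 0.25). Of the mitochondrial enzymes among the 36 genes, Txn2 and Prdx3 rose and Sod2 and Txnrd2 did not pass.

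In the pentose phosphate pathway the step that commits glucose 6-phosphate fell. G6pdx (ENSMUSG00000031400, chrX:74409483-74429194, minus strand), glucose-6-phosphate dehydrogenase, was at 104.1 and 120.4 FPKM in PBS and at 56.0 and 54.0 FPKM after 5-FU, 2.04-fold lower (log2 difference -1.01, SE 0.12, adjusted p 0.00485). It shares 418 exonic bases with Ikbkg on the opposite strand, which was at 10.5 and 14.3 FPKM in PBS and at 8.1 and 7.98 FPKM after 5-FU. Pgd, the other NADPH-producing dehydrogenase of the pathway, was at 86.1 ± 5.37 and 72.0 ± 3.03 FPKM (log2 difference -0.26, SE 0.11, adjusted p 0.11; 0.03 with a trend on exonic length removed). The G6pdx to Pgd ratio was 1.26 and 1.34 in PBS and 0.756 and 0.773 after 5-FU. In the non-oxidative arm, Tkt was at 60.0 ± 8.04 and 46.4 ± 0.889 FPKM (log2 difference -0.36, SE 0.133, adjusted p 0.078) and Taldo1 at 108 ± 23.7 and 132 ± 1.64 FPKM (log2 difference 0.31, SE 0.177, adjusted p 0.201). These 2 enzymes had log2 differences of opposite sign, and neither passed.

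The ferritin chains were the most abundant transcripts of the set and could not be placed against the spread of the PBS libraries. Ftl1 (ENSMUSG00000050708), the light chain, was at 1640.4 and 5029 FPKM in PBS and at 3556 and 3269 FPKM after 5-FU, so both 5-FU values lay between the PBS values (log2 difference 0.25, SE 0.55, adjusted p 0.724). Without PBS replicate 1 the Ftl1 difference was -0.56, and without PBS replicate 2 it was 1.06, each past the threshold. Fth1, the heavy chain with the ferroxidase activity, was at 1684 and 2474 FPKM in PBS and at 2837 and 2769 FPKM after 5-FU (log2 difference 0.46, SE 0.224, adjusted p 0.147). The Ftl1 to Fth1 ratio was 0.974 and 2.03 in the PBS libraries and 1.25 and 1.18 in the 5-FU libraries. The processed copy Ftl1-ps1 followed the same order of libraries, at 7.11 and 16.5 FPKM in PBS and 14.3 and 14.3 FPKM after 5-FU, and its reads may be shared with Ftl1.

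The ferritin chains also set the summed level of the 36 genes. That sum was 6547 and 11760.4 FPKM in PBS and 10248 and 9832 FPKM after 5-FU, and ferritin made up 50.8% and 63.8% of it in PBS and 62.4% and 61.4% after 5-FU. Without the ferritin chains the sum was 3223 and 4257 FPKM in PBS and 3855 and 3794 FPKM after 5-FU, so the 5-FU libraries lay between the PBS libraries either way. The summed transcript level of the system did not separate the treatments, while single members did.

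Some members differed between the PBS libraries themselves. PBS replicate 2 was above PBS replicate 1 by more than 0.5 on the log2 scale for 7 members: Hmox1 (1.65), Ftl1 (1.62), Gsta4 (0.96), Nqo1 (0.86), Gstm1 (0.83), Prdx5 (0.61) and Fth1 (0.55). None of the members was below it by as much, and none of these 7 passed the treatment test. Over all members PBS replicate 2 was the higher library for 19 of 36 (52.8%), beside 42.4% of all genes tested. The largest absolute log2 difference between the 5-FU libraries was 0.18 (Prdx5). Cd68, the 1 leukocyte marker above 1 FPKM, also differed by 1.47 between the PBS libraries, while Ptprc was at most 0.0343 FPKM and Cd3e was listed at 0 in every library. The labels do not give a difference between the PBS libraries beyond their replicate number, and its part in the results was not tested. The log2 differences of the 14 genes that passed kept their sign with either PBS library left out. The error of such a fit rests on the 5-FU pair, which varied less. It therefore cannot show that the calls withstand the spread of the PBS libraries.

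**Figure D4:**
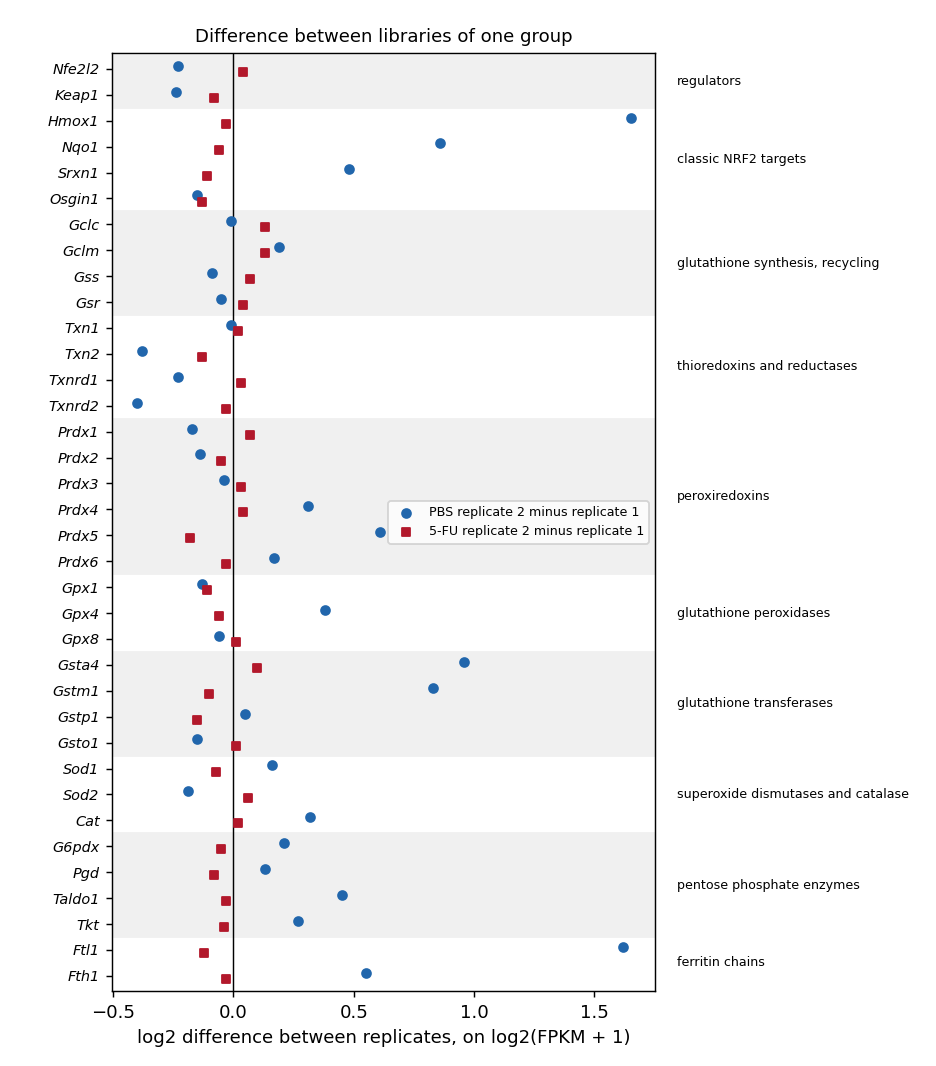
Log2 difference between the replicates of each group (replicate 2 minus replicate 1) for the 36 genes, PBS and 5-FU shown separately. The 5-FU differences stay within 0.18 of 0, whereas in PBS Hmox1 and Ftl1 reach 1.65 and 1.62.

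The surrounding pathway was read from 84 further genes, of which 74 passed the filter on low values. After 5-FU, 11 were higher (14.9%, beside 22.1% of all genes), 18 were lower (24.3%, beside 31.2%) and 45 did not pass. The groups did not overlap for 52 of 74 (70.3%, beside 81%). The median log2 difference was -0.0752, but -0.276 without PBS replicate 1, 0.002 without PBS replicate 2 and 0.03 with median-ratio scaling. With quantile normalization 16 were higher and 14 lower. With either 5-FU library left out, 5 of these calls were past the threshold: Mafk and Nfe2l3 higher, and Chac1, H6pd and Idh1 lower.

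Among 10 partners and antagonists of NRF2, 2 rose (20.0%, beside 22.1% of all genes tested) and 2 fell (20.0%, beside 31.2%). Mafk, a small MAF protein that NRF2 pairs with on DNA, was at 10.9 and 11.2 FPKM in PBS and at 38.5 and 37.8 FPKM after 5-FU, 3.45-fold higher (log2 difference 1.7, SE 0.106, adjusted p 0.0027). Nfe2l3, a relative of Nfe2l2, was at 0.0488 and 0.0162 FPKM in PBS and at 1.05 and 1.17 FPKM after 5-FU (log2 difference 1.03, adjusted p 0.00458), and since the PBS values rest on a few reads no fold is given. Nfe2l3 passed the filter on low values only through the 5-FU libraries, so its call could go in 1 direction only. Nfe2l1, another relative, fell from 47.4 ± 24.8 to 18.4 ± 0.46 FPKM (log2 difference -1.22, adjusted p 0.0481), and Btrc, a ubiquitin ligase subunit that also targets NRF2, fell from 7.38 ± 1.69 to 3.68 ± 0.0931 FPKM (log2 difference -0.83, adjusted p 0.0207). The call of Nfe2l1 was lost in 9 of 16 alternatives, median-ratio scaling (adjusted p 0.0695) and robust eBayes (0.0515) among them, and its difference ranged from -1.77 with PBS replicate 1 left out to -0.67 with PBS replicate 2 left out. The call of Btrc was lost with the trend on exonic length removed. Bach1, the repressor that competes at NRF2 sites, was at 3.52 and 6.16 FPKM in PBS and at 4.80 and 4.96 FPKM after 5-FU (adjusted p 0.886). Sqstm1, an NRF2 target whose product sequesters KEAP1, was at 227.7 and 446.4 FPKM in PBS and at 500.1 and 487.3 FPKM after 5-FU (log2 difference 0.63, SE 0.335, adjusted p 0.174).

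Of 15 further NRF2 target genes, 3 rose (20.0%, beside 22.1% of all genes tested) and 4 fell (26.7%, beside 31.2%). Both shares were near those of all genes. Slc7a11, the cystine-importing chain of the transporter that feeds glutathione synthesis, was at 12.8 and 19.0 FPKM in PBS and at 4.40 and 4.96 FPKM after 5-FU, 3.4-fold lower (log2 difference -1.55, SE 0.219, adjusted p 0.0064). The Slc7a11 difference was -1.01 (adjusted p 0.0197) with the trend on exonic length removed and -0.79 (adjusted p 0.0375) with the trend on gene span removed. Its partner chain Slc3a2, which also serves other amino acid transporters, rose 1.75-fold, from 128 ± 13.1 to 224 ± 6.06 FPKM (log2 difference 0.81, adjusted p 0.0074; 0.5 with quantile normalization). The Slc3a2 to Slc7a11 ratio was 9.26 and 7.19 in PBS and 51.9 and 44.3 after 5-FU. Trim16 (3.31 to 9.93 FPKM, adjusted p 0.0156) and the biliverdin reductase Blvra (16.2 to 30.6 FPKM, adjusted p 0.00779) also rose. Ugdh, which makes UDP-glucuronate, fell from 26.9 ± 0.472 to 9.86 ± 0.157 FPKM (adjusted p 0.00285), and the NADPH-producing malic enzyme Me1 fell from 91.0 ± 6.48 to 47.9 ± 2.85 FPKM (adjusted p 0.00527).

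Of 15 further glutathione genes tested, none passed upward (beside 22.1% of all genes tested) and 2 fell (13.3%, beside 31.2%). At an unadjusted p under 0.05 in limma, 0 were higher. Chac1, which degrades glutathione, was at 19.5 and 18.3 FPKM in PBS and at 2.23 and 2.25 FPKM after 5-FU, 8.44-fold lower (log2 difference -2.62, SE 0.125, adjusted p 0.0027). Gstcd fell from 11.8 ± 1.18 to 5.53 ± 0.478 FPKM (adjusted p 0.00704). Gclc and Slc7a11, on the side of supply, and Chac1, on the side of breakdown, thus fell in the same libraries.

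Of 14 further thioredoxin-fold and repair genes, 5 rose (35.7%, beside 22.1% of all genes tested) and 2 fell (14.3%, beside 31.2%). Txnl1, a thioredoxin-like protein, rose from 70.7 ± 2.97 to 129 ± 7.4 FPKM (adjusted p 0.00519), and Sesn2, a stress-induced sestrin, rose from 13.0 ± 3.28 to 25.9 ± 1.83 FPKM (adjusted p 0.0161). Msrb1, a methionine sulfoxide reductase and selenoprotein, rose from 32.8 ± 0.32 to 50.6 ± 2.39 FPKM (adjusted p 0.0101). Nxn, nucleoredoxin, fell from 21.9 ± 3.0 to 10.0 ± 0.331 FPKM (log2 difference -1.05, adjusted p 0.00592; -0.47 with the trend on gene span removed), and Msrb3 fell from 5.05 ± 1.65 to 2.51 ± 0.262 FPKM (adjusted p 0.0461).

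Beside G6pdx, 13 other NADPH and oxidant genes were tested. Of these, 1 was higher (7.69%, beside 22.1% of all genes), 6 were lower (46.2%, beside 31.2%) and 6 did not pass. The list was chosen with earlier results of these data known, so the shares only describe it. Idh1, the cytosolic isocitrate dehydrogenase that makes NADPH, was at 47.1 and 56.1 FPKM in PBS and at 12.7 and 14.4 FPKM after 5-FU, 3.8-fold lower (log2 difference -1.85, SE 0.142, adjusted p 0.00278). H6pd, the pentose phosphate dehydrogenase of the endoplasmic reticulum, was at 5.76 and 6.31 FPKM in PBS and at 0.697 and 0.787 FPKM after 5-FU, 8.13-fold lower (log2 difference -2.01, SE 0.133, adjusted p 0.0027). H6pd passed the filter on low values only through the PBS libraries, so its call too could go in 1 direction only. Me2, the mitochondrial malic enzyme, fell from 161 ± 36.9 to 61.2 ± 0.495 FPKM (adjusted p 0.00576). Tigar, which diverts glucose toward the pentose phosphate pathway, rose from 9.45 ± 2.73 to 18.0 ± 0.434 FPKM (adjusted p 0.0238).

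Of 7 partners of iron storage tested, none passed upward in limma, beside 22.1% of all genes tested. At an unadjusted p under 0.05 in limma, 1 was higher. In this list 2 fell (28.6%, beside 31.2%). These were Ireb2, an iron regulatory protein that represses ferritin translation, from 22.3 ± 3.21 to 13.5 ± 1.01 FPKM (adjusted p 0.0196), and the iron importer Slc11a2, from 10.8 and 11.2 FPKM to 7.57 and 7.39 FPKM (adjusted p 0.0239). Without a filter on low values Trim16, Sesn2, Tigar, Nfe2l1, Btrc, Msrb3 and Ireb2 did not pass, and with quantile normalization Nfe2l1, Btrc, Msrb3 and Slc11a2 did not. The calls of Ireb2, Slc11a2 and Msrb3 were lost with the trend on exonic length removed, and those of Btrc, Me1, Gstcd, Msrb3, Ireb2 and Slc11a2 with the trend on gene span removed.

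**Figure D5:**
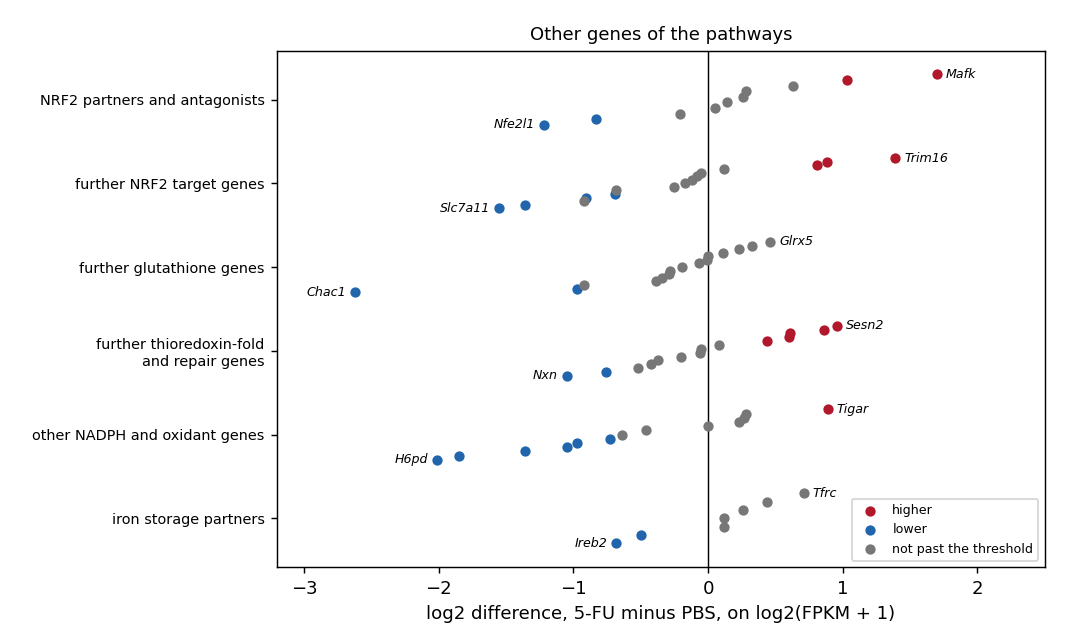
Log2 difference (5-FU minus PBS) of each tested gene in the 6 further lists, with the calls marked and each list in its own row. Chac1 at -2.62 and H6pd at -2.01 are the lowest points, and Mafk at 1.7 is the highest.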

How the data were processed

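Polyadenylated RNA of MC38 cells was sequenced in 2 PBS and 2 5-FU libraries. STAR 2.4.1a, Picard 2.9.0 and the build GRCm38 are listed in the submitters' processing notes, without their roles. How reads were counted, with which annotation and with which strand setting, was not given in the sources used here. FPKM values of 36445 genes were deposited by the authors, and 36295 of the genes were found in GENCODE M21 (GRCm38), the source of coordinates and lengths. The table showed 26 symbols as dates, and these were restored from gene IDs.

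Depth was estimated from the smallest FPKM steps. Of values below 100 reads, 63.1% to 65.1% per library lay within 0.02 of a whole read. No count test was run.

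Genes that reached 1 FPKM in at least 2 libraries were tested on log2(FPKM + 1) with limma 3.58.1 (lmFit, eBayes with trend; R 4.3.3), with two-sided p adjusted by Benjamini-Hochberg over all 11644 genes and a threshold of 0.05. Every adjusted p is from limma. On this scale the change of a low gene is understated. Folds compare mean FPKM. An exact permutation test of 2 against 2 cannot go below p = 0.333. The labels do not say that replicates came from separate cultures, so the p-values measure only how far these samples vary, perhaps for technical reasons.

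The members and lists were chosen with earlier results of these data known. All 36 members are named. Of the further lists, up to 3 genes per direction with the largest called difference are named, and Slc7a11, Sqstm1 and Bach1 whatever their values. Alternatives covered pseudocount, filter, scaling, eBayes settings, a replicate block and single libraries left out. Removing a trend on exonic length or gene span was chosen after seeing the data.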

Additional observations from a re-analysis of the deposited data

How the results depend on the processing

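All 14 member calls were kept in 14 of 16 alternatives, and 3 were kept without either 5-FU library. Leaving out 1 library in turn gave 1 to 22 members higher and 2 to 14 lower, 2 to 24 further pathway genes higher and 3 to 39 lower, and 259 to 4385 of all genes higher and 237 to 5249 lower. The single library left in a group is taken to vary as the other group does. Quantile normalization gave 8 members lower. Without a filter 7 pathway genes were higher, with more genes tested, and without the trend on gene span 10 were lower (the cause was not tested). With a mean of at least 5 FPKM 2158 genes were lower, with fewer genes tested.

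Among members that did not pass, the sign turned with quantile normalization for Gsr (-0.18), Prdx4 (-0.1), Gstp1 (-0.16) and Sod1 (-0.14), with median-ratio scaling for Gstm1 (0.01), and with the exonic length trend removed for Gstp1 (-0.02) and Pgd (0.03). Among the genes named, it also turned with 1 or the other PBS library left out for 4, running from -0.63 to 0.33 for Gsta4, from -0.52 to 0.3 for Gstm1, from -0.56 to 1.06 for Ftl1 and, in the further lists, from -0.28 to 0.38 for Bach1. The cause was not tested.

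With the replicate number as a block, 10 members were higher and 5 lower, Hmox1 being added. Of the further genes 10 were higher and 20 lower, and Slc11a2 was not past (adjusted p 0.059). The deviations of same-numbered libraries from their group means had a correlation of -0.0101 over the genes tested. With 2 libraries per group both pairs give this same value, so it cannot decide whether the numbers pair the samples. The labels do not say. Every member had at least 237 estimated reads, but the estimated depth differed with treatment, and its part was not tested. The 2 libraries per group limited the precision.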
